A study of Mus musculus with 6 samples.

Results

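Basophils, mast cells and eosinophils are marked by a small group of transcripts, and 10 of them are described here in mouse neutrophils. They were Prss34, Mcpt8, Cpa3, Fcer1a, Ms4a2, Gata2 and Hdc, which mark basophils and mast cells, and Epx, Prg2 and Prg3, which mark eosinophils. The 10 genes were taken by symbol from a table of 54532 genes, of which 31614 were at 0 in every library. They had been picked because earlier results of these data were known, so their difference between genotypes is given below as a description, with no test.

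Bone marrow neutrophils of C57BL/6J mice were selected with anti-Ly-6G magnetic beads, from wild type (WT) mice and from mice lacking progranulin (PGRN KO). Progranulin is the secreted protein that Grn encodes. Cells of both genotypes were cultured for 2 h and then kept with live Candida albicans for 6 h, after which RNA was extracted, and 3 libraries of each genotype were sequenced. No unchallenged library was analysed here, so each value describes neutrophils after contact with the fungus. The knockout was present in every cell of the mice, the study's methods describe the selected cells as mostly, not wholly, positive for Ly-6G, and the sources used here do not say whether the 3 cultures of a genotype came from separate mice.

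Basophils and mast cells carry the high affinity receptor for IgE, and its crosslinking makes them release histamine, proteases and lipid mediators. Eosinophils store basic proteins and a peroxidase in their granules. The 3 kinds of cell arise in the bone marrow from progenitors that use the transcription factor Gata2, which binds DNA at the letters GATA.

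The bases just before the annotated start are shown for the 4 of the 10 genes that hold the letters AGATAA there. The sequences are from RefSeq (GRCm38.p6), 250 bases before the annotated start, read 5′ to 3′ on the strand of the gene, with AGATAA or its reverse complement TTATCT in capitals.
Prss34 (chr17:25298144-25298393, plus strand): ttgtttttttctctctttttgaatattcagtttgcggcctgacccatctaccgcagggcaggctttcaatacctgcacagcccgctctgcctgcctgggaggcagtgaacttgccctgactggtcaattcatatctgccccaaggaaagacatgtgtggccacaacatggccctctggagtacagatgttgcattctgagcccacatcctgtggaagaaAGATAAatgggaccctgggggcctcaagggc
Cpa3 (chr3:20242182-20242431, minus strand): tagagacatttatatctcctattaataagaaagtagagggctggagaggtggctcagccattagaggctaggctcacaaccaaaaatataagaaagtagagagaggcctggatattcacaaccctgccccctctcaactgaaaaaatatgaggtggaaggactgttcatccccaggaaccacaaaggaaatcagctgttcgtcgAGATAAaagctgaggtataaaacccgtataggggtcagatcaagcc
Fcer1a (chr1:173227230-173227479, minus strand): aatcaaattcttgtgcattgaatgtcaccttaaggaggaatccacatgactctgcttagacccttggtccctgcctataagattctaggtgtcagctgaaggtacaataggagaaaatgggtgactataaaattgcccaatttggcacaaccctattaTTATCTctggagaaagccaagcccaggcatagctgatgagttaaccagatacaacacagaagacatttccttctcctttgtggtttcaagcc
Ms4a2 (chr19:11623720-11623969, minus strand): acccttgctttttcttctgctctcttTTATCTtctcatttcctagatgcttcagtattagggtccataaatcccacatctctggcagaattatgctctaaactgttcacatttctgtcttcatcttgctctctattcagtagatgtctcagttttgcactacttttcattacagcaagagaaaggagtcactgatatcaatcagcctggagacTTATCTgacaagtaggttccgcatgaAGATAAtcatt
The letters began 31 bases before the start of Prss34, 46 before that of Cpa3 and 92 before that of Fcer1a. Ms4a2 held them at 224, 37 and 11 bases before its start. Of the 10 genes, 9 had a window in the table of sequences, and 4 of the 9 held AGATAA on either strand, against 9.99% of all 32851 windows of this length. When AGATAG and the forms of both with T as the first letter, TGATAA and also TGATAG, were searched too, on both strands and with no hits that overlapped, 6 of the 9 windows held a match, against 26.5% of all windows. Hdc and Prg3 were the added genes, with TGATAG and with TGATAA in that order. RefSeq starts Hdc 621 bases inside the span given for it below, so its window lies within that span. The RefSeq start of Mcpt8 is 76 bases inside its span, so part of its window lies within the gene, and that of Fcer1a is 15 bases before its span. The windows of Mcpt8, Epx and Gata2 held no match. Since the 10 genes were chosen on this contrast, nothing is read from the shares of windows. A match is a description of the letters, and binding was not measured here. Any part of the letters in the differences between genotypes was not tested.

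Each value is an FPKM, the number of sequenced fragments per kilobase of a gene's exons and per 1000000 of the authors' library size. Multiplying it by the gene's length and dividing by a unit fitted for each library returned a whole number of fragments, within 0.05, for 100% of values above 0. The fragments behind each value were recovered in this way, and the authors' library size was inferred from the fitted unit. The libraries held 17087344 to 18821091 fragments on genes. These totals were 1.034 to 1.039 times the authors' library size in WT and 0.946 to 0.957 times in PGRN KO libraries. Grn, the targeted gene, stood at 161.3 to 168.4 FPKM in WT and at 0.206 to 0.747 in PGRN KO libraries. The defining neutrophil genes were high in both genotypes, with a summed level of 67487 to 72103 FPKM over 11 genes in WT and 69279 to 79054 in PGRN KO. Genotypes were compared across genes with limma on log2(FPKM + 1), over the 14807 genes whose mean reached 0.1 FPKM, and a gene was called at an adjusted p under 0.05, which 17.9% of them passed. On this scale 1175 genes rose in PGRN KO (7.94% of those tested) and 1473 fell (9.95%), while scaling to the plain totals of fragments gave 2149 and 934. With 1 library left out, 540 to 913 genes were called higher and 775 to 1248 lower.

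Prss34 and Mcpt8, serine proteases that basophils store in their granules, had the highest levels after Hdc among the 7 basophil and mast cell genes described here. Prss34 (ENSMUSG00000056399, chromosome 17 from 25298394 to 25300161) stood at 1.65, 1.23 and 1.39 FPKM in the 3 WT libraries and at 5.76, 7.70 and 6.82 in the 3 PGRN KO libraries. These came from 34, 25 and 29 fragments in WT and from 125, 170 and 163 in PGRN KO. Every PGRN KO library lay above every WT library, and the PGRN KO mean was 4.75 times the WT mean, with a 95% counting interval of 3.77 to 6.04. Counting intervals here are exact binomial (Clopper-Pearson) ones on the summed fragments and cover counting error only, not the spread between cultures. They belong to the ratio of summed fragments per library size, which lies close to the printed ratio of the means (for Prg2, 3.51 beside 3.46).

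Mcpt8 (ENSMUSG00000022157, chromosome 14 from 56082166 to 56085273) stood at 0.354, 0.481 and 0.702 FPKM in WT and at 3.14, 3.42 and 3.62 in PGRN KO, from 26 and 189 fragments. The lowest PGRN KO library was well above the highest WT library, and the ratio of the means was 6.63 (4.39 to 10.4). A microRNA gene, Mir6949, is annotated inside Mcpt8 on the same strand, and fragments from either cannot be told apart.

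Cpa3 encodes carboxypeptidase A3, a granule protease of mast cells that basophils also make. Cpa3 (ENSMUSG00000001865, chromosome 3 from 20215620 to 20242181) had 0, 0 and 1 fragment in WT and 12, 3 and 15 in PGRN KO libraries, which gave 0.443, 0.109 and 0.503 FPKM in the latter. PGRN KO replicate 5 was far below the other PGRN KO libraries but still above WT replicate 3, the only WT library with a fragment, at 0.0385 FPKM. The ratio of 27.4 rests on that single WT fragment, and its counting interval ran from 4.55 to 1117. Mir7007 is annotated inside Cpa3.

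Fcer1a and Ms4a2 encode the alpha chain of the IgE receptor, which binds IgE, and its beta chain, which strengthens the signal. Fcer1a (ENSMUSG00000005339, chromosome 1 from 173221284 to 173227214) had 2, 1 and 0 fragments in WT and 13, 10 and 12 in PGRN KO, or 0.118, 0.0601 and 0 FPKM against 0.730, 0.552 and 0.612. Ms4a2 (ENSMUSG00000024680, chromosome 19 from 11615523 to 11623719) stood at 0.251, 0.234 and 0.311 FPKM in WT and at 0.797, 0.470 and 0.886 in PGRN KO, from 38 and 113 fragments. Neither gene overlapped between genotypes, and the ratio was 10.6 for Fcer1a (3.36 to 54.1) and 2.70 for Ms4a2 (1.86 to 4.03). For Ms4a2 the gap was narrow at PGRN KO replicate 5, the library that was also lowest for Fcer1a and Cpa3.

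Gata2 encodes the transcription factor of the early stages of these lineages. Gata2 (ENSMUSG00000015053, chromosome 6 from 88193891 to 88207032) stood at 0.0109, 0.0333 and 0.0216 FPKM in WT and at 0.135, 0.255 and 0.0942 in PGRN KO, from 6 and 48 fragments. Here PGRN KO replicate 5 was the highest library rather than the lowest, with 25 of the 48 fragments. The ratio was 7.35 (3.12 to 20.9), and the mean of 0.0917 FPKM over the 6 libraries was below the minimum for the fit across genes.

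Hdc encodes histidine decarboxylase, the enzyme that forms histamine, and neutrophils transcribe it too. Hdc (ENSMUSG00000027360, chromosome 2 from 126593667 to 126619299) stood at 139.3, 156.2 and 159.7 FPKM in WT and at 157.8, 152.4 and 148.5 in PGRN KO, so the genotypes overlapped. The ratio was 1.01, with a counting interval of 0.995 to 1.02, and the difference in log2(FPKM + 1) was 0.01 as deposited and 0.13 with plain totals. It turned slightly negative, to -0.05 without WT replicate 1 and to -0.01 without PGRN KO replicate 4. Hdc was above 98.6% of all genes with any fragment, and it held 99.5% of the fragments of the 10 genes in WT and 97.9% in PGRN KO.

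Prg2, Epx and Prg3 encode granule proteins of eosinophils. Prg2, which encodes the major basic protein, was the highest of them (ENSMUSG00000027073, chromosome 2 from 84980461 to 84983632). It stood at 1.62, 1.65 and 0.906 FPKM in WT, from 59 fragments, and at 3.41, 4.53 and 6.50 in PGRN KO, from 227. The genotypes did not overlap and the ratio was 3.46 (2.63 to 4.76), but the PGRN KO libraries spread widely, with replicate 6 at the top.

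Epx, eosinophil peroxidase (ENSMUSG00000052234, chromosome 11 from 87864000 to 87875536), had 3, 2 and 1 fragments in WT and 20, 11 and 22 in PGRN KO. In FPKM that was 0.0645, 0.0438 and 0.0213 against 0.409, 0.221 and 0.409, a ratio of 8.02 (3.47 to 22.9) with no overlap. Prg3, a relative of Prg2 that lies next to it (ENSMUSG00000027072, chromosome 2 from 84988215 to 84993886), had 1 fragment in all of WT, in replicate 3, and 2, 0 and 2 in PGRN KO. Its genotypes overlapped, and with a counting interval of 0.361 to 179.7 a difference in either direction was not detectable at this depth.

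**Figure D1:**
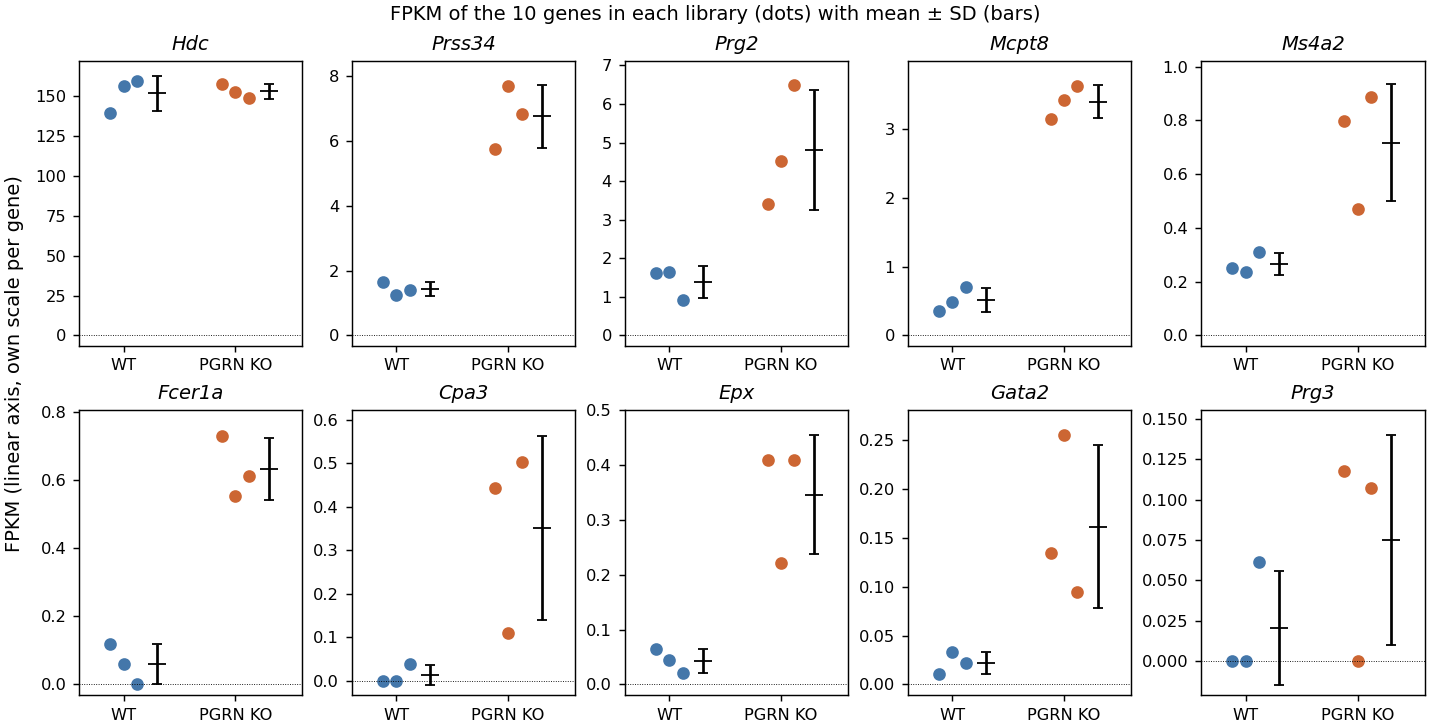
FPKM (linear axis, a separate scale for each gene) of the 10 genes in each of the 3 WT (blue) and 3 PGRN KO (orange) libraries, with black bars for mean ± SD. Hdc lies at the same height in both genotypes and Prg3 overlaps, while for the other 8 genes every orange dot is above every blue dot.

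Of the 10 genes, 8 had every PGRN KO library above every WT library and 2, Hdc and Prg3, overlapped. Among all 14807 tested genes, 18.1% showed that pattern and 19.6% the opposite one, but the 10 genes were chosen on this contrast, so nothing is read from the comparison. Gata2 and Prg3 were under the filter and the other 8 genes passed it. The median difference of the 10 genes was 0.42 in log2(FPKM + 1), beside 0.00255 for all tested genes. This scale understates the change of genes under 1 FPKM, and with a pseudocount of 0.1 the median was 1.67.

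Without Hdc, the 9 remaining genes summed to 4.06, 3.73 and 3.45 FPKM in WT and to 14.9, 17.3 and 19.5 in PGRN KO, from 228 and 1157 fragments. The mean of that sum was 3.75 ± 0.303 FPKM for WT against 17.2 ± 2.30 for PGRN KO (SD, n = 3 each), a ratio of 4.60. Split by lineage, Prss34, Mcpt8, Cpa3, Fcer1a and Ms4a2 together gave 5.21 times the WT level and Prg2, Epx and Prg3 together gave 3.60 times. As a share of the library these were rare transcripts, with the 9 genes at 4.16 to 4.61 fragments per 1000000 on genes in WT and 19.4 to 24.0 in PGRN KO. In bulk samples, fewer cells of a type and less RNA per cell cannot be told apart, so the sums do not say how many basophils or eosinophils were in the cultures.

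**Figure D2:**
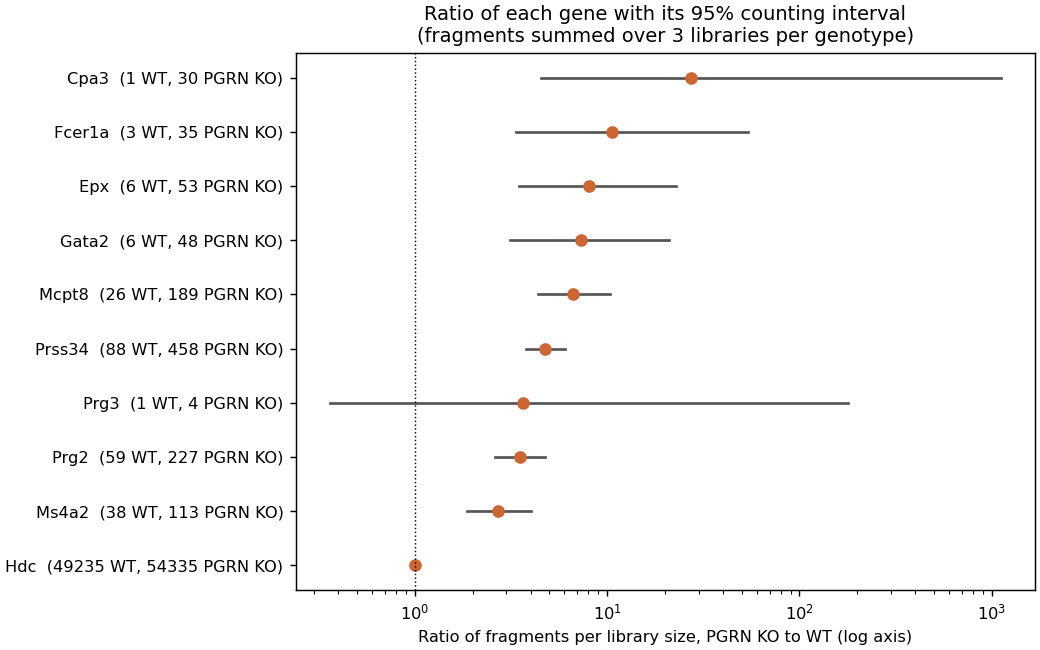
Ratio of PGRN KO to WT fragments per library size (log axis) for each of the 10 genes, with its 95% counting interval; fragments summed over 3 libraries per genotype stand beside each name. Points run from Hdc, near 1, to Cpa3, and the widest intervals are those of Prg3 and Cpa3, each with 1 WT fragment. The intervals cover counting error only and the genes were chosen on this contrast, so their place against 1 is no test.

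By mean FPKM, the order in WT was Hdc, Prss34, Prg2, Mcpt8, Ms4a2, Fcer1a, Epx, Gata2, Prg3 and Cpa3. In PGRN KO the first 6 places were the same, followed by Cpa3, Epx, Gata2 and Prg3. Of the 9 neighbouring pairs in each order, 5 overlapped across libraries in WT (Prss34 with Prg2, and each pair from Fcer1a down) and 6 in PGRN KO. In PGRN KO the pairs that did not overlap were Hdc above Prss34, Mcpt8 above Ms4a2, and Fcer1a above Cpa3.

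Ratios between the genes are given per length. Prss34 was 1.98 to 4.65 times Mcpt8 in WT and 1.83 to 2.25 times in PGRN KO libraries, so the ranges overlapped. Prg2 was 25.0 to 42.5 times Epx in WT and 8.33 to 20.5 times in PGRN KO, and these did not overlap, although the WT values rest on 1 to 3 Epx fragments per library. Hdc was 84.6 to 126.7 times Prss34 in WT and 19.8 to 27.4 times in PGRN KO.

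Other genes of the same lineages moved less uniformly. Of 28 other basophil and mast cell genes, 11 had no fragment in any library, among them the mast cell proteases Cma1, Cma2, Mcpt1, Mcpt2, Mcpt4, Mcpt9 and Tpsb2, the tryptase Tpsg1 and the mast cell receptors Mrgprb1 and Mrgprb2. Of the 10 that were tested, 3 rose and 1 fell, with a median difference of 0.21, beside 7.94% higher and 9.95% lower over all tested genes. Gzmb, among the 3, and Cyp11a1, not called, reached the 0.1 FPKM minimum only through PGRN KO, with WT means of 0.0408 and 0.0245. Ltc4s, not called, reached it only through WT, with a PGRN KO mean of 0.0727. Differences were above 0 for 7 of the 10 and below 0 for 3. Among those not called, Cyp11a1 had 6 fragments in WT and 56 in PGRN KO, and Slc18a2 had 76 and 152. Ltc4s had 16 and 4, and none of these 3 genes overlapped between genotypes. Their adjusted p from limma was 0.063, 0.07 and 0.112 in that order. Under the alternative settings Cyp11a1 went as low as 0.00206 and Slc18a2 0.00711, but neither passed with any 1 library left out. The lists described from here on were also written with earlier results of these data known.

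Kit, the receptor for stem cell factor that mast cells and progenitors carry, rose from 1.43 ± 0.217 to 2.12 ± 0.0911 FPKM (mean ± SD of 3 libraries each), a difference of 0.37 (SE 0.084, adjusted p = 0.0282 from limma). With 1 library left out its adjusted p lay between 0.0361 and 0.0854 and passed only without WT replicate 1. Gzmb, granzyme B, rose by 0.30 (SE 0.069, adjusted p = 0.0273) from 3 fragments to 23. With 1 library left out it passed only without PGRN KO replicate 4 (0.0380) or WT replicate 3 (0.0451), with a highest value of 0.0786. Gzmb reached the minimum for the test only through PGRN KO (0.286 FPKM, against 0.0408 in WT), so nothing is read from its call. Hpgds, the prostaglandin D2 synthase of mast cells, rose by 0.23 (adjusted p = 0.0442) but passed in none of the 6 fits with 1 library left out (0.0750 to 0.128).

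Mitf, a transcription factor of mast cells, fell from 6.40 ± 0.527 to 4.37 ± 0.226 FPKM, a difference of -0.46 (SE 0.071, adjusted p = 0.00772), and passed with any 1 library left out (0.0212 to 0.0376). Il3ra, the alpha chain of the receptor for interleukin 3, the main growth factor of basophils, stood at 8.34 ± 0.365 and 9.72 ± 1.08 FPKM and did not pass (adjusted p = 0.16), but it did with plain totals (0.0449) and with voom (0.00821).

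Of 9 other eosinophil genes in the table, 4 were tested, 1 rose and 1 fell, with a median of -0.12, against 7.94% higher and 9.95% lower over all tested genes. Voom, whose own filter took in 5 of the genes, gave a median of 0.79. Siglecf, a lectin on the surface of eosinophils, rose from 0.551 ± 0.115 to 1.10 ± 0.159 FPKM (mean ± SD of 3 libraries each), a difference of 0.44 (SE 0.091, adjusted p = 0.0200). It passed without PGRN KO replicate 4 (0.0337) or WT replicate 2 (0.0472) and not without any 1 of the other libraries, up to 0.0664. Ear6, an eosinophil associated ribonuclease, fell from 9.42 ± 0.523 to 7.29 ± 0.360 FPKM, a difference of -0.33 (SE 0.061, adjusted p = 0.0136), and did not pass without WT replicate 2 (0.0544) or with voom (0.174). Ear2 stood at 2.47 ± 0.710 and 1.46 ± 0.181 FPKM and did not pass (adjusted p = 0.081, or 0.0241 without WT replicate 3). The Ear genes are near-identical copies, so how fragments were split among them is uncertain.

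The partners of the 10 gene products were read from 3 lists, for signalling below the IgE receptor, for the cytokine receptors of these lineages, and for histamine and eicosanoids. Together they held 37 genes, of which 34 were tested, 7 rose and 14 fell, beside 7.94% higher and 9.95% lower over all tested genes, and neutrophils are known to use many of them. None of the 15 signalling genes rose and 8 fell, with a median of -0.23. The count below 0 was 12 of 15 as deposited and 8 of 15 with plain totals, where 5 genes were called lower. With any 1 library left out, Fyn, Gab2, Syk, Vav1 and Inpp5d kept their calls, while Lyn, Lat2 and Grb2 lost theirs in 3 to 5 of the 6 fits, with adjusted p up to 0.0922.

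Fyn, a kinase of the IgE receptor pathway, fell from 2.97 ± 0.0393 to 1.46 ± 0.0380 FPKM (mean ± SD of 3 libraries each), a difference of -0.69 (SE 0.058, adjusted p = 0.000849). The adaptor Gab2 fell from 21.9 ± 0.730 to 15.9 ± 0.367 FPKM (adjusted p = 0.00192) and Vav1, a signalling protein of blood cells, from 148.3 ± 4.01 to 110.0 ± 6.85 FPKM (adjusted p = 0.00361). The 3 genes passed with any 1 library left out, the highest adjusted p being 0.0251. Fcer1g, the gamma chain that completes the receptor and that neutrophils also use for Fc gamma receptors, stood at 1802 ± 28.5 and 1704 ± 55.4 FPKM and did not pass (adjusted p = 0.253). Unlike the alpha and beta chains above, it was thus among the abundant transcripts in both genotypes.

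Of the 9 cytokine receptor genes tested, 1 rose, Kit, which is near the share of 7.94% over all tested genes, and 4 fell, beside a share of 9.95%. Of the 4, Csf2rb alone passed with any 1 library left out (0.00427 to 0.0200). Csf2rb, the beta chain shared by the receptors for interleukin 3, interleukin 5 and GM-CSF, fell from 98.1 ± 0.784 to 74.9 ± 3.25 FPKM (difference -0.39, SE 0.044, adjusted p = 0.00251), although its near-identical copy Csf2rb2 makes the split of fragments uncertain. Il4ra, the receptor for interleukin 4, fell from 58.0 ± 2.57 to 46.0 ± 5.33 FPKM (adjusted p = 0.0367), and with 1 library left out it passed only without PGRN KO replicate 4 (0.00785), reaching 0.128 otherwise. It also missed the threshold with plain totals (0.111), where 2 genes of this list rose and 1 fell.

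Of the 10 histamine and eicosanoid genes tested, 6 rose and 2 fell, with a median of 0.25, beside shares of 7.94% and 9.95% over all tested genes. Hnmt, which inactivates histamine, rose from 7.51 ± 0.735 to 11.3 ± 0.926 FPKM (difference 0.54, SE 0.085, adjusted p = 0.00837). Ptgs2, the inducible cyclooxygenase, fell from 359.2 ± 23.4 to 230.9 ± 16.7 FPKM (difference -0.64, SE 0.071, adjusted p = 0.00232). Both passed with any 1 library left out, the highest adjusted p being 0.0421. The other 5 that rose were Alox5, Alox5ap and Lta4h, which make leukotrienes, with Ptgs1 and Hpgds, at differences of 0.22 to 0.33, and of these Lta4h alone passed with any 1 library left out (0.0131 to 0.0389), the others reaching up to 0.131.

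**Figure D3:**
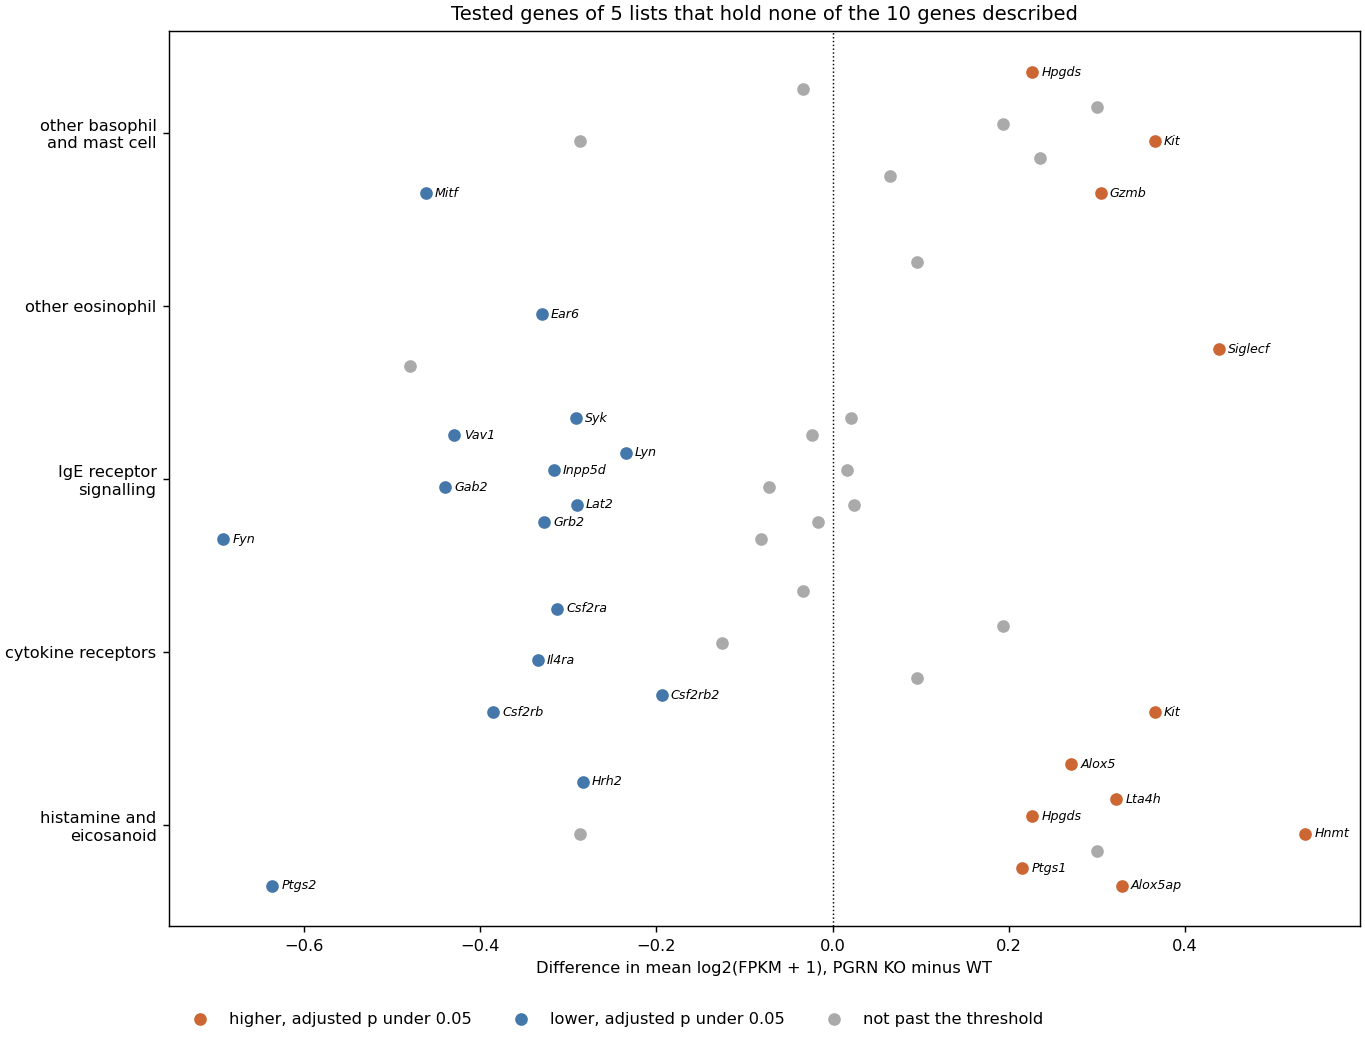
Difference in mean log2(FPKM + 1), PGRN KO minus WT, of each tested gene in 5 lists, with genes past an adjusted p of 0.05 from limma in orange (higher) or blue (lower) and the others in grey; height within a list has no meaning. The 8 called signalling genes all lie left of 0, while 6 of the 8 called histamine and eicosanoid genes lie right of it.

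Several of the 10 genes lie in clusters of related genes, and the neighbours whose bodies lay within 100 kb were read from the same fit. There were 90 such genes, 38 with any fragment and 25 tested, of which 9 rose and 2 fell, beside 7.94% higher and 9.95% lower over all tested genes. The 2 that fell are near that share. The largest change was that of Ctsg, which encodes cathepsin G, a neutrophil protease, and starts 17.3 kb upstream of Mcpt8. Ctsg rose from 13.8 ± 1.76 to 105.4 ± 4.06 FPKM (mean ± SD of 3 libraries each), a difference of 2.85 (SE 0.086, adjusted p = 1.77e-05). Mpo, the peroxidase of neutrophil granules, starts 82.0 kb downstream of the start of Epx and rose from 11.2 ± 0.632 to 59.9 ± 6.43 FPKM (difference 2.31, adjusted p = 4.71e-05). The ratio of Epx to Mpo, per length, was 0.00201 to 0.00543 in WT libraries and 0.00352 to 0.00779 in PGRN KO libraries, so the ranges overlapped.

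Around Ms4a2, genes of the same membrane protein family moved in both directions. Ms4a3, which marks granulocyte and monocyte progenitors, rose from 12.9 ± 0.382 to 29.6 ± 1.5 FPKM (difference 1.14, adjusted p = 0.000105). Ms4a6d fell from 71.6 ± 4.84 to 38.4 ± 3.69 FPKM (difference -0.89, adjusted p = 0.00118) and Ms4a6b from 5.55 ± 0.338 to 3.01 ± 0.570 FPKM (difference -0.72, adjusted p = 0.00708). Oosp1, an oocyte gene, rose from 7 fragments to 49 (adjusted p = 0.0233), and passed without PGRN KO replicate 4 (0.0386) or 5 (0.0165) but not without any 1 of the others, up to 0.0839.

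Near Hdc, the antisense gene Gm27003 rose from 0.833 ± 0.127 to 1.59 ± 0.150 FPKM (difference 0.50, adjusted p = 0.00973), and missed the threshold with voom (0.0987). The library kit does not mark strand, so its reads cannot be told from those of the gene it overlaps. Near Prg2 and Prg3, Ssrp1, a chromatin protein, rose from 9.44 ± 0.447 to 12.8 ± 0.547 FPKM (difference 0.40, adjusted p = 0.00546). Around Prss34, 5 neighbours were tested and none passed limma's adjusted threshold. Fcer1a had 7 neighbours, and none of them had a fragment.

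**Figure D4:**
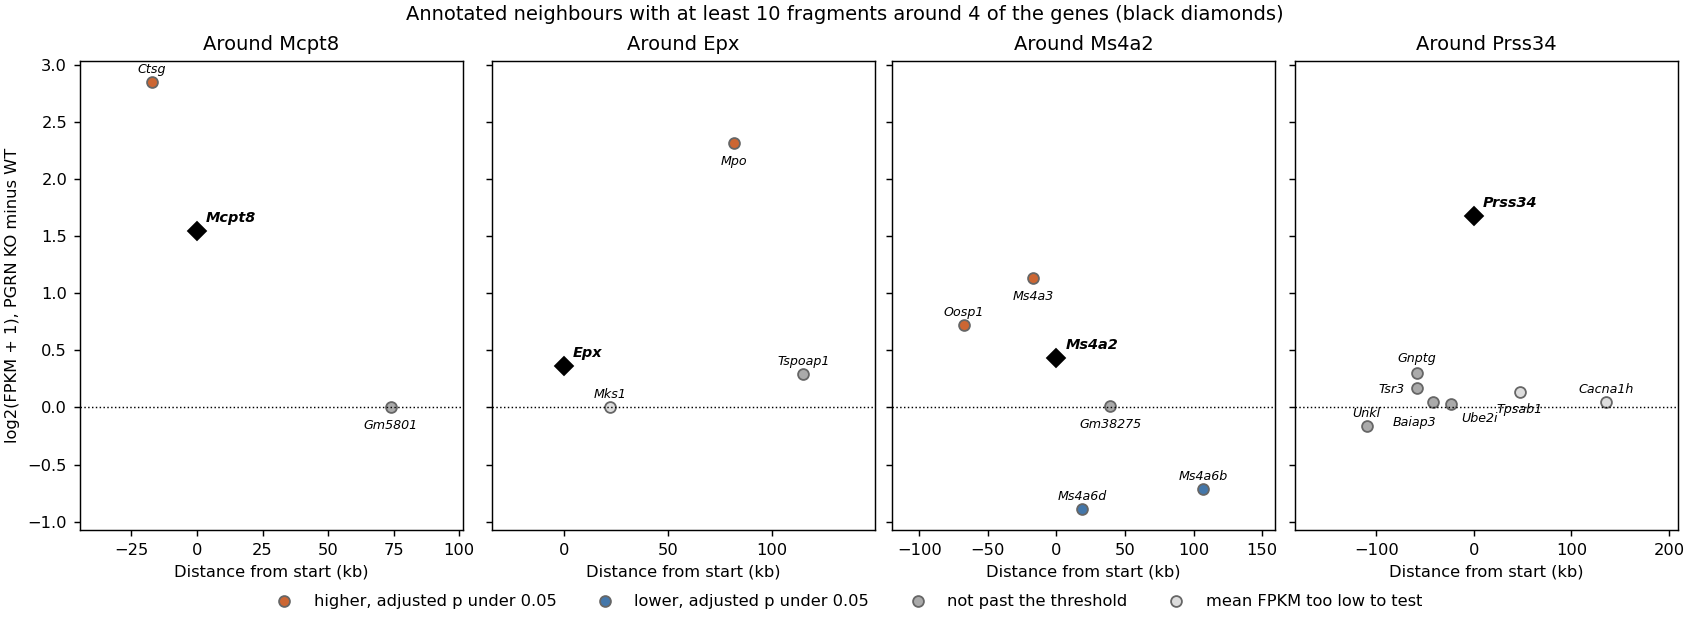
Difference in mean log2(FPKM + 1), PGRN KO minus WT, of annotated neighbours with at least 10 fragments, against their distance in kb from the start of Mcpt8, Epx, Ms4a2 or Prss34 (negative is upstream), with called genes in orange (higher) or blue (lower). Ctsg and Mpo lie above the black diamonds of Mcpt8 and Epx, the neighbours of Ms4a2 lie on both sides of 0, and those of Prss34 lie near 0.

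The genes whose profile over the 6 libraries was most like the sum of the 10 were sought among 9145 genes with a mean of at least 1 FPKM and a value above 0 in each library. The measure was the root mean square difference in log2 of each value over the gene's own mean. Since Hdc made up nearly all of the sum, the nearest genes were flat ones, from Cebpg at 0.0283 through Uimc1, Mcm10, Nsmce3, Chic2, Tnrc6b, Taf6l, B230303A05Rik and Gramd1b to Txn2 at 0.0374.

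For the sum of the 9 genes without Hdc, a choice made after the data were seen, the nearest were Elane at 0.153 and then Igkc at 0.156, followed by Igkv17-127, Prtn3, Igkv15-103, Igkv10-96, Ighv1-72, Ighv1-26, Mpo and Mzb1 at 0.252. The 9 genes were chosen on this contrast, so any gene with a similar ratio of PGRN KO to WT ranks near their sum. Nothing about shared cells or regulation is read from the ranking. Elane, Prtn3 and Mpo encode proteins of neutrophil primary granules. Igkc and the Igkv and Ighv genes encode parts of antibodies, and Mzb1 helps to assemble them. Elane stood at 62.9, 59.2 and 56.4 FPKM in WT and at 262.9, 260.1 and 245.5 in PGRN KO. The antibody variable genes belong to families of related copies, so their separate values are uncertain.

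Markers of some other cells and stages were also higher in PGRN KO, beside 7.94% of all tested genes called higher and 9.95% called lower. The summed level of Elane, Mpo, Prtn3 and Ctsg was 115.4 to 130.8 FPKM in WT and 577.5 to 642.2 in PGRN KO, and 4 of 4 rose. For 7 B and plasma cell genes it was 42.7 to 46.4 and 88.0 to 103.1 FPKM, with 4 of 5 tested genes higher. For 7 erythroid genes it was 0.616 to 1.56 and 3.67 to 3.98 FPKM, with 2 of 2 higher, and for 6 megakaryocyte and platelet genes 0.480 to 0.768 and 1.28 to 1.62, with 1 of 2 higher.

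The cell cycle genes Mki67, Top2a, Ccnb1, Cdk1 and Mcm5 summed to 66.4 to 69.7 FPKM in WT and to 89.3 to 95.1 in PGRN KO, and 4 of 5 rose. The 6 monocyte and macrophage genes were at 126.5 to 131.1 and 102.1 to 117.7 FPKM, with 3 lower and none higher. Over all tested genes, 7.94% were called higher and 9.95% lower. Of the 6 T and NK cell genes, Cd3e and Cd3g were at 0 in every library, and the sum did not exceed 0.0389 FPKM. The sum of 5 progenitor genes, Cd34, Flt3, Meis1, Hoxa9 and Sox4, was 0.0968 to 0.213 FPKM in WT and 0.103 to 0.213 in PGRN KO. The part of these cells and stages in the values of the 10 genes was not tested.

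**Figure D5:**
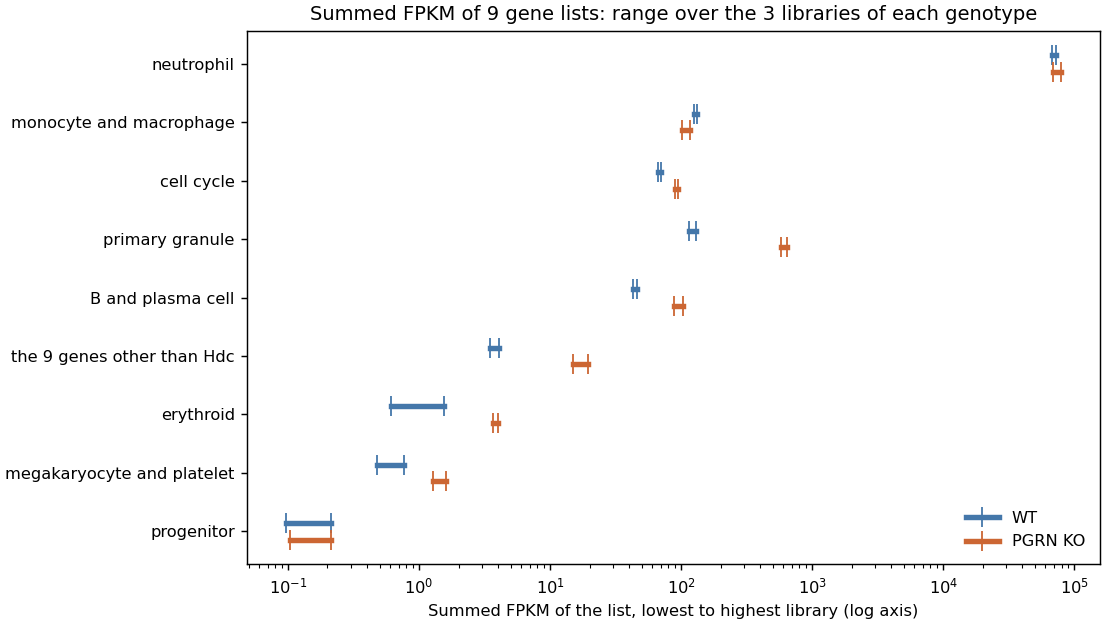
Summed FPKM (log axis) of 9 gene lists, each drawn as a line from the lowest to the highest of the 3 WT (blue) or 3 PGRN KO (orange) libraries. The lines for primary granule, B and plasma cell, erythroid, megakaryocyte and platelet, and cell cycle genes are apart with PGRN KO higher, as is that for the 9 genes other than Hdc, while those for neutrophil and progenitor genes overlap.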

How the data were processed

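RNA sequencing libraries of 3 WT and 3 PGRN KO neutrophil cultures were used, grouped by their labels. The authors filtered, mapped and counted the reads and deposited FPKM values with gene lengths. The submitters' processing notes name HISAT2 2.0.5, featureCounts 1.5.0-p3, DESeq2 1.20.0 and GRCm38, while the study's methods name HISAT and HTSeq. The libraries were sized so that median-of-ratios factors over the FPKM values are all 1. Whole fragments were recovered from FPKM, length and a unit fitted for each library, and give the depth behind each value.

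Genotypes were compared with limma 3.58.1 (lmFit, eBayes with trend, two-sided, Benjamini-Hochberg over 14807 genes) in R 4.3.3 on log2(FPKM + 1) for genes whose mean reached 0.1 FPKM. Since the deposited values are FPKM, limma was used in place of the study's count test. P-values measure the spread between 3 libraries per genotype. On simulated data the fit called 140 of 200 changed genes among 14807, with 9 false calls. The simulation gave all genes the same spread beyond counting error. Its counts therefore do not measure the power or error of the fit on the real libraries. Python 3.11.15, numpy 2.4.6, pandas 2.3.3 and scipy 1.17.1 did the rest. The 10 genes and the 14 other lists were chosen with earlier results of these data known. Named besides them were the called or higher (at least 1 FPKM) genes of the same lineages, the 10 most similar profiles, and Grn. By size of difference, at most 8 called partners and 8 called neighbours were named. The other called signalling, histamine and eicosanoid genes were named outside this rule. Fcer1g, Cyp11a1, Slc18a2, Ltc4s, Tpsab1 and other genes below the filter were named after their values were seen. Positions are on GRCm38, and 9 of the 10 genes have the same start and end in GENCODE M21 (Prss34 does not). Alternatives were pseudocount 0.1, a minimum of 1 FPKM, no minimum, median-of-ratios scaling, plain totals of fragments, voom on genes with at least 10 fragments, and each library left out.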

Additional observations from a re-analysis of the deposited data

How the results depend on the processing

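Scaling by median-of-ratios gave the same calls as the deposited values. Its factors were all 1, so this fit repeats the main one and is no check of it. Plain totals of fragments gave 2149 genes higher and 934 lower, 5 other basophil and mast cell genes higher and 7 partner genes lower. Voom, in which the median of all tested genes was 0.13 above the deposited scale, gave 3032 genes higher, 6 other basophil and mast cell genes higher and 0 other eosinophil genes lower. With a minimum of 1 FPKM, 0 other eosinophil genes were called higher by limma, as Siglecf was no longer tested. With no minimum, 4 partner genes rose. The median difference of the 10 genes was 1.67 with a pseudocount of 0.1 and 2.52 with voom, since the pseudocount of 1 shrinks genes of low FPKM, and all 10 differences were above 0 under each scaling. With 1 library left out, 540 to 913 genes rose and 775 to 1248 fell, where the fewest came without WT replicate 2 (540 and 795) and PGRN KO replicate 5 (547 and 775). Over the same fits 0 to 1 other basophil and mast cell genes and 0 to 1 other eosinophil genes rose, 0 to 2 other eosinophil genes fell, 2 to 5 partners rose and 7 to 13 fell, 5 to 8 neighbours rose, and the median of the 10 genes lay between 0.35 and 0.54, highest without PGRN KO replicate 5. The partner, neighbour and same-lineage genes named by the stated rule had 273 values under an alternative. Of these, 234 kept their direction and side of the threshold, 36 lost the call, 3 gained it and none changed sign. The cause was not tested. The 273 values include the median-of-ratios fits, which could not differ from the main fit. No paired analysis was possible because the replicate numbers of the genotypes (1 to 3 and 4 to 6) are not shared.

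Depth limits the low genes: 5 of the 10 had fewer than 10 fragments over the 3 WT libraries, so the size of their ratio is known only within wide counting intervals. With 3 libraries a genotype, an exact permutation test of a single value could not go below 0.1.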

Other observations

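Some genes of the same lineages were too low for the comparison across genes. Tpsab1, a tryptase gene within 100 kb of Prss34, had 1 fragment in the WT libraries and 13 in the PGRN KO libraries, with every PGRN KO library above every WT library. Gata1, which drives the erythroid, mast cell and eosinophil lineages, had 3 and 13 fragments, and the genotypes overlapped. The eosinophil ribonuclease gene Ear1 had 0 and 6 fragments, and Ccr3, the eotaxin receptor of eosinophils, had 13 and 22, while Alox15, the lipoxygenase of eosinophils, had 5 and 2. Il4, a cytokine that basophils release, had 2 and 4 fragments, and Il13 had 6 and 3, while Grm6, Itga2 and Rnase12 had at most 3 over all 6 libraries. These genes were chosen after their values were seen and were below the minimum for the comparison. When every gene above 0 was tested with limma, or those with at least 10 fragments with voom, none of the 10 passed, the lowest adjusted p being 0.0506 for Tpsab1.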
